A study of Homo sapiens with 6 samples.

Results

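A chosen set of classical cadherins, and of catenins bound to them at the adherens junction, was followed by RNA-seq in *SAMD1* KO cells. The 10 genes *CDH1*, *CDH2*, *CDH3*, *CDH4*, *CDH6*, *CDH11*, *CTNNA1*, *CTNNA2*, *CTNNB1* and *CTNND1* were taken by their symbols, and each had a row among the 20347 gene symbols of the deposited data. PaTu8988t is an established cell line from a human pancreatic ductal adenocarcinoma (PDAC), and SAMD1 is a CpG island-binding protein. Both groups were the same line, grown without a further treatment: 3 control libraries, from cells given an unspecific guide RNA with Cas9, and 3 *SAMD1* KO libraries, from clonally independent cells edited with CRISPR/Cas9. The clones thus differ from one another by their founder cell as well as by their edit, and nothing in the labels says whether the control replicates were separate cultures, so p-values measure the spread between these libraries. The targeted gene *SAMD1* had 2231, 2382 and 2299 normalized counts in control cells and 874.1, 1082 and 824.8 in the KO clones (log2 fold change −1.32, standard error 0.10, limma adjusted p = 0.000724).

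Cadherins are calcium-dependent adhesion proteins that reach from one cell to the next. Inside the cell, β-catenin binds the far end of the cadherin tail and α-catenin, which links the complex to actin filaments. The product of *CTNND1*, p120-catenin, binds near the membrane and slows cadherin uptake. E-cadherin (*CDH1*) is typical of epithelia such as pancreatic ducts and N-cadherin (*CDH2*) of neural, muscle and mesenchymal cells, and a shift from the former to the latter is a common mark of epithelial–mesenchymal transition (EMT). The comparison asked which of these genes change when SAMD1 is missing.

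Of the 10 genes, *CDH2* rose in *SAMD1* KO cells, and no other member passed the cut-off in either direction. Expression was compared on log2(normalized count + 1), where a normalized count is a library's read count divided by its size factor, for the 12773 genes with a mean of at least 10. That level was reached by 6 of the 10 members, and 4 were too low to test. The cut-off for a call was a change of more than 0.5 on the log2 scale, up or down, together with a limma p below 0.01 before adjustment. By this rule 1 of the 6 tested members was higher and 0 were lower, where 5.77% of all tested genes were called higher and 2.08% lower. With limma adjusted p below 0.05 as the rule, 1 of the 6 passed, against 13% of all tested genes, and no other member had an unadjusted p below 0.05 by limma, edgeR or DESeq2, where 29.6% of all tested genes did by limma. Of all tested genes, 37.8% had no overlap between the groups, and among the 6 members 1 did. The median log2 fold change was 0.056 over the 6 members and −0.0059 over all tested genes. In bulk RNA, fewer cells that express a gene and less of its RNA per cell cannot be told apart.

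**Figure D1:**
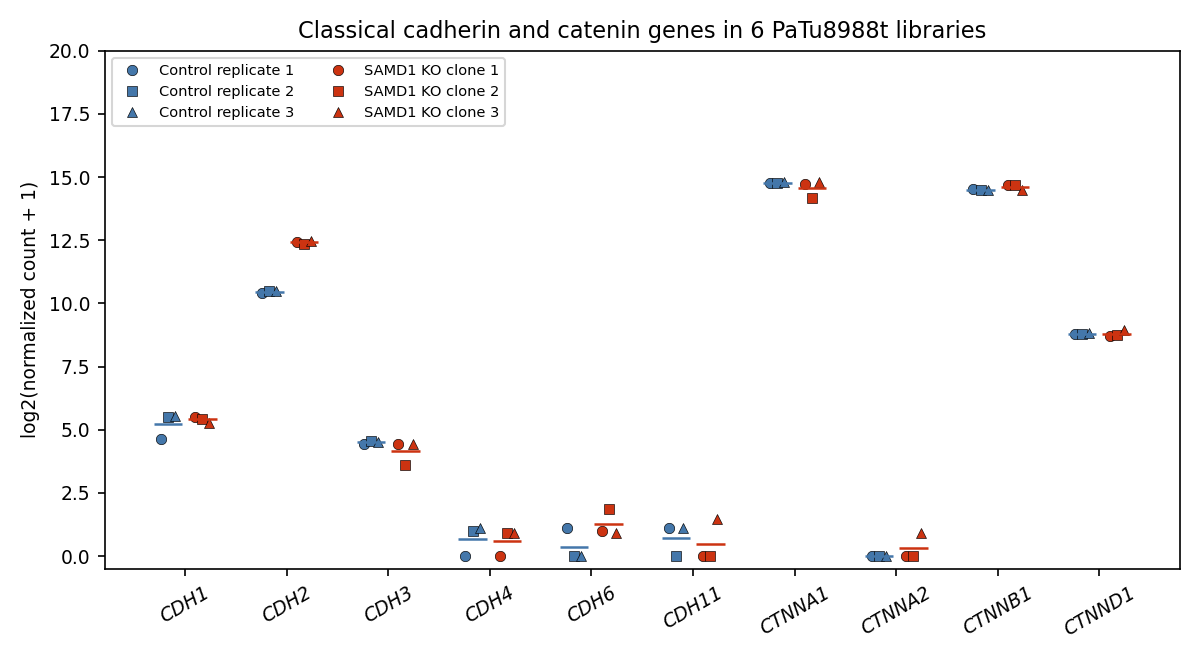
Level of each of the 10 genes as log2(normalized count + 1), with 1 point for each of the 3 control replicates (blue) and 3 SAMD1 KO clones (red) and a line at each group's mean. The groups stand apart for CDH2, clone 2 lies below the other libraries for CTNNA1, and CDH4, CDH6, CDH11 and CTNNA2 lie close to 0 in all libraries.

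*CDH2* lies on chromosome 18 (27932879 to 28177946, minus strand, hg38). RefSeq holds 2 starts for it in the table of promoters used here (GRCh38.p14), and the 250 bases before each are shown because *CDH2* is the member that rose. Neither window holds an annotated *CDH2* exon of the gene set used here, and exons of other genes were not looked for. Both read 5′ to 3′ on the minus strand, and capitals mark GCGC, which the study reports as enriched at CpG islands bound by SAMD1. GCGC reads the same on both strands, and overlapping matches were counted.
CDH2 start at 28177130, chr18:28177131-28177380: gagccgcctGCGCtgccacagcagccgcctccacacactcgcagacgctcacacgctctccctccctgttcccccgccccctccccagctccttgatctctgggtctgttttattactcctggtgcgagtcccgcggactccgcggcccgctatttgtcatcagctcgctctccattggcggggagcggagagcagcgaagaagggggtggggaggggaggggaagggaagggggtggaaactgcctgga
CDH2 start at 28036641, chr18:28036642-28036891: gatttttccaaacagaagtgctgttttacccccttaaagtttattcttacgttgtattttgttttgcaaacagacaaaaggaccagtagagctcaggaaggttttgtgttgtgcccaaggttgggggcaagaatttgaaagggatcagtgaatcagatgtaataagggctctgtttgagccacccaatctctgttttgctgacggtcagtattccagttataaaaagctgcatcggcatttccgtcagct
The window before the outer start held 1 GCGC, 17 CpG and 66% G or C, and the inner one held 0 GCGC and 4 CpG. Of the 35116 promoter windows of this length in the table, 53.4% held GCGC at least once, and 39.0% had as many CpG as the outer *CDH2* window or more. The study's primer pair for the *CDH2* promoter in chromatin immunoprecipitation spans 248 bases from 150 to 397 bases before the outer start (chr18:28177280-28177527), a stretch with 3 GCGC and 24 CpG. In the gene set used here, *CDH2* runs on to 28177946, beyond the outer start, so both windows and this stretch lie inside the annotated gene. The primer pair is printed because it places the site that the study examined.
forward primer, minus strand, chr18:28177508-28177527: gaggaagcaaaaccacgagc
reverse primer, plus strand, chr18:28177280-28177299: agagatcaaggagctgggga
Binding was not analysed here, and these matches describe the sequence alone. The table of promoters held 13 windows for 5 of the members (*CDH2*, *CDH4*, *CTNNA1*, *CTNNA2* and *CTNNB1*). *CTNNB1*, not called, had 9 GCGC and 34 CpG. The windows of *CTNNA1*, not called, had 1, 4, 0 and 0 GCGC with 33, 39, 3 and 8 CpG. Those of *CTNNA2* had 0, 9, 0 and 0 with 2, 39, 2 and 2, and those of *CDH4* 0 and 1 with 6 and 12. *CTNNA2* and *CDH4* were too low to test. A link of these counts to expression was not tested.

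In single libraries, the normalized counts of *CDH2* were 1376, 1426 and 1439.9 in control cells, against 5596, 5278 and 5604 in *SAMD1* KO clones 1 to 3. The lowest KO clone thus lay far above the highest control replicate. The mean rose from 1414 ± 33.5 to 5492 ± 186 (SD, n = 3 each), a 3.88-fold rise with a 95% interval of the fitted fold from 3.56 to 4.23. This is 1.96 on the log2 scale (limma standard error 0.053, adjusted p = 9.05e-06), and its p ranked 2 among all 12773 tested genes. The exact permutation test of the 6 values gave p = 0.1, the smallest that 3 against 3 libraries allow. Both groups were tight, with a coefficient of variation of 2.37% in control cells and 3.38% among the clones. These values rest on 1203 to 1457 recovered reads per control library and 5659 to 6230 per KO library, so counting error is small beside the change.

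E-cadherin and P-cadherin, which are typical of epithelia, were measured at low levels. *CDH1* (chromosome 16, 68737292 to 68835537, plus strand), which encodes E-cadherin, had normalized counts of 24.0, 45.0 and 45.8 in control cells and 44.5, 42.3 and 37.8 in the KO clones. The groups overlapped, and control replicate 1 was the lowest library. The log2 fold change was 0.17 (95% interval −0.50 to 0.84, limma adjusted p = 0.737), and it was −0.13 without control replicate 1, so no direction was given by these libraries. *CDH3* (chromosome 16, 68636189 to 68727468, plus strand), which encodes P-cadherin and lies beside *CDH1*, had 20.6, 22.5 and 21.8 normalized counts in control cells and 20.8, 11.2 and 20.7 in the KO clones. Clone 2 was the lowest, and clones 1 and 3 lay within the control range. Its log2 fold change was −0.33 (95% interval −1.05 to 0.38, limma adjusted p = 0.511), and −0.057 without clone 2. These values rest on 21 to 49 reads per library for *CDH1* and 13 to 23 for *CDH3*. A change as large as that of *CDH2* lay outside both intervals, and a difference within them was not detectable at this depth.

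The remaining cadherins of this set and the neural α-catenin were at the limit of detection. *CDH4* (R-cadherin, chromosome 20, 61252261 to 61940617), *CDH6* (K-cadherin, chromosome 5, 31193686 to 31329146), *CDH11* (the cadherin of osteoblasts and other mesenchymal cells, chromosome 16, 64943753 to 65126112) and *CTNNA2* (chromosome 2, 79185231 to 80648861) had at most 3 reads in every library. The highest single values were 1 read for *CDH4*, 3 for *CDH6*, 2 for *CDH11* and 1 for *CTNNA2*. A limit of 3 reads corresponds to 2.59 to 3.44 normalized counts, depending on the library. No fold change was formed for these 4 genes. Limits and intervals on reads cover counting error only.

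The catenins were, except for *CTNNA2*, expressed in all libraries, and none passed the cut-off. *CTNNA1* (chromosome 5, 138610967 to 138935034, plus strand), which encodes the epithelial form of α-catenin, had normalized counts of 28224, 28060 and 28417 in control cells and 26740, 18264 and 28386 in KO clones 1 to 3. Clone 2 stood below the other 5 libraries, while clone 1 lay a little below the control range and clone 3 was within it. The coefficient of variation was 0.632% in control cells and 22.2% among the clones. The log2 fold change was −0.23 (95% interval −0.60 to 0.13, limma adjusted p = 0.355), and −0.035 without clone 2.

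*CTNNB1* (chromosome 3, 41194741 to 41260096, plus strand), which encodes β-catenin, also the transcriptional co-activator of the WNT pathway, had 23394, 23075 and 23256 normalized counts in control cells. The KO clones had 26037, 26634 and 23008. Clones 1 and 2 lay above all control replicates and clone 3 just below them. The log2 fold change was 0.12 (95% interval −0.043 to 0.27, limma adjusted p = 0.297). Without clone 3 it was 0.18, with a limma adjusted p of 0.0446, and still short of the fold cut-off of 0.5.

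*CTNND1* (chromosome 11, 57753243 to 57819546, plus strand) encodes p120-catenin. It had 437.0, 447.1 and 454.8 normalized counts in control cells and 420.3, 426.8 and 491.1 in the KO clones. The groups overlapped, with clones 1 and 2 below the control range and clone 3 above it. The log2 fold change was −0.0041 (95% interval −0.22 to 0.22, limma adjusted p = 0.981), and its sign turned under other scalings. The level of this gene is uncertain, since 39.1% of its exon bases and 95.4% of its coding bases are shared, on the same strand, with 2 other annotated coding genes (ENSG00000288534 and ENSG00000254732). Whether reads in shared bases were counted for *CTNND1* is not given in the sources used here.

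Each gene was also set beside its 40 nearest tested neighbours on the chromosome, 20 on each side, in each clone. For *CTNNA1* in clone 2, the gene's own log2 difference from the control mean was −0.63, and the median of its neighbours was −0.53. In clones 1 and 3 its own differences were −0.078 and 0.0078, with neighbour medians of −0.026 and −0.053. The neighbours of *CTNNB1* also moved with it. Its own log2 differences were 0.16, 0.20 and −0.015 in clones 1 to 3, where the neighbour medians were 0.25, 0.22 and −0.022. With the median shift of each region removed, the log2 fold change of *CTNNB1* became −0.037 and that of *CTNNA1* −0.032. *CDH2* stood apart from its region, with own log2 differences of 1.98, 1.90 and 1.99 and neighbour medians of 0.10, 0.16 and 0.22. Removing the regional shift left a log2 fold change of 1.80. The neighbour medians of *CDH1* were −0.24, −0.22 and 0.0074, those of *CDH3* −0.24, −0.20 and 0.054, and those of *CTNND1* −0.19, −0.064 and −0.049. The number of copies of these regions was not tested.

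**Figure D2:**
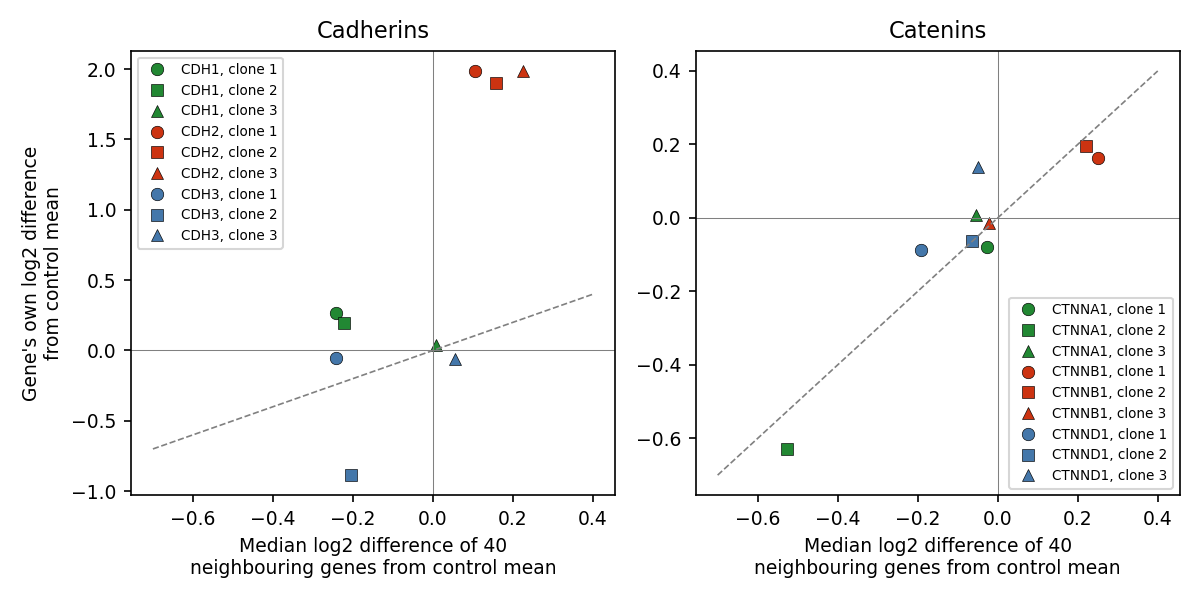
Each point is 1 gene in 1 SAMD1 KO clone, with the median log2 difference of the 40 neighbouring genes from the control mean on the x axis and the gene's own log2 difference on the y axis, cadherins on the left and catenins on the right on different y scales, and the dashed line marks equal values. CDH2 lies far above the line in all 3 clones, while CTNNA1 in clone 2 (−0.63 against −0.53) and CTNNB1 in clones 1 and 2 lie near it.

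To compare levels between genes, normalized counts were divided by the length of each gene's merged exons. In control cells the mean level per kb of exon was 164.7 ± 3.90 for *CDH2*, 6.30 ± 2.03 for *CDH1* and 3.38 ± 0.151 for *CDH3* (SD, n = 3 each). Thus N-cadherin RNA was already the most abundant of the 6 cadherin RNAs in control cells, and E-cadherin RNA came next among these 6, far below it. *CDH24*, a cadherin outside the 6, had more normalized counts than *CDH1* in control cells (389.3 against 38.3, not divided by length). In *SAMD1* KO cells the levels per kb of *CDH2*, *CDH1* and *CDH3* were 639.9 ± 21.7, 6.84 ± 0.565 and 2.75 ± 0.858. *CDH1* and *CDH3* were ordered alike in every library, with values of 3.95 to 7.54 per kb for *CDH1* and 1.76 to 3.52 for *CDH3*. Of the catenins, *CTNNA1* and *CTNNB1* lay above all 6 cadherins per kb in both groups, with control means of 3197 ± 20.2 and 1977 ± 13.6. *CTNND1*, whose level is uncertain, had a control mean of 29.3 ± 0.587 per kb, below *CDH2*. *CTNNA1* was above *CTNNB1* in all control replicates and in clones 1 and 3, and below it in clone 2, where the ratio of the levels per kb was 0.913, against 1.37 and 1.64 in clones 1 and 3 and 1.62 ± 0.0104 in control cells. By the exact permutation test this ratio gave p = 0.4, or 0.48 after adjustment, so no difference between the groups was shown.

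The share of *CDH2* in the summed level per kb of the 6 cadherins was 95.6%, 93.8% and 93.7% in control cells and 98.4%, 98.6% and 98.5% in the KO clones. The groups did not overlap, and the share of *CDH1* moved from 3.58% ± 1.06 to 1.05% ± 0.0999 (SD, n = 3) while its own level overlapped between the groups. The summed cadherin level rose from 174.6 ± 6.05 to 649.7 ± 22.3, and the summed catenin level was 5203 ± 29.8 in control and 4945 ± 507 in KO cells. In the KO clones the catenin sum was 5270, 4361 and 5204, with clone 2, the clone low in *CTNNA1*, the lowest. The ratio of summed cadherin to summed catenin level per kb was 0.0322, 0.0343 and 0.0342 in control cells. It was 0.126, 0.143 and 0.127 in the KO clones, so the RNA of these 6 cadherins gained 3.94-fold on that of the 4 catenins. For the shares of *CDH2* and *CDH1*, the cadherin sum and this ratio, the exact permutation p was 0.1, the smallest possible, and 0.15 after adjustment over the 6 quantities compared. For the catenin sum it was 0.8. These quantities follow from the rise of *CDH2* and are not independent of it. The sums and shares cover the 10 genes alone, so they are not shares of all cadherin RNA in these cells. Among the genes left out, *CDH24* had 389.3 normalized counts in control and 336.7 in KO cells, and *JUP* had 982.1 and 1260. On the same scale, not divided by length, *CDH2* had 1414 and 5492. The gain of the *CDH2* share was 4.11 percentage points with merged exons and 2.63 with the longest transcript as the length.

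**Figure D3:**
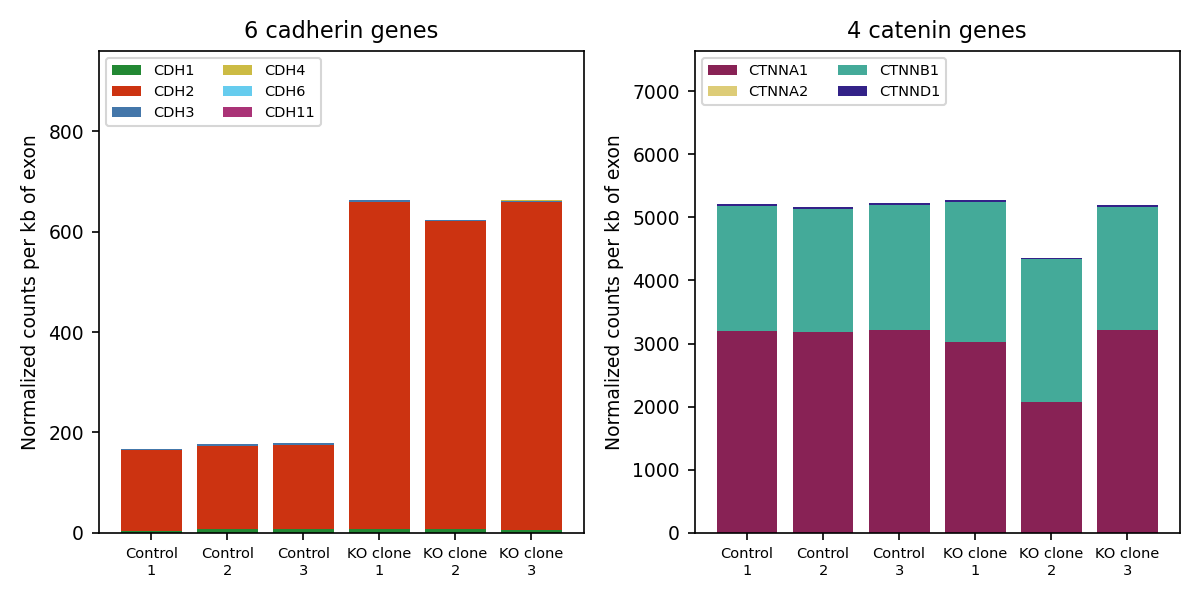
Stacked bars of the normalized counts per kb of exon in each of the 6 libraries, for the 6 cadherin genes on the left and the 4 catenin genes on the right, on different scales that both start at 0. CDH2 fills nearly the whole cadherin bar in both groups and raises the sum from 174.6 to 649.7, and the catenin bar is lowest in clone 2.

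Of the genes in 4 related lists, 1 was called by limma. Of all tested genes, limma called 5.77% higher and 2.08% lower. An adjusted p below 0.05 was reached by 13% of them and an unadjusted p below 0.05 by 29.6%, both with limma. Over all tested genes, edgeR called 779 higher and 247 lower, and DESeq2 called 830 and 265. The share at an unadjusted p below 0.05 was not formed for edgeR or DESeq2. Among 17 other cadherins, 3 were tested, and limma and edgeR called 0 and DESeq2 called 1, each with 1 at an unadjusted p below 0.05. A further 8 of them were at or under 3 reads in every library, 4 of these at 0. The other cadherins with the highest means were *CDH24* and *CDH26*. *CDH24* had 389.3 ± 6.84 normalized counts in control and 336.7 ± 57.1 in KO cells (log2 fold change −0.22, limma adjusted p = 0.322). *CDH26* had 31.3 ± 10.6 and 35.4 ± 27.7, with a limma adjusted p of 0.909. *CDH5*, VE-cadherin of endothelium, was chosen after its values were seen and missed the cut-off, with 37.7, 29.4 and 32.1 normalized counts in control cells and 2.97, 17.3 and 11.7 in the KO clones (log2 fold change −1.80, limma adjusted p = 0.0748). It was the cadherin that DESeq2 called lower, and the 2 groups did not overlap. *CDH5* had at most 33 reads in any library, and its value in clone 1 lay at the limit of 3 reads.

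Among 7 relatives of the catenins, 5 were tested and 0 were called by limma, edgeR or DESeq2, with 4 at an unadjusted p below 0.05 by each of them and 1 at a limma adjusted p below 0.05. That gene, *JUP*, was chosen after its values were seen. It encodes plakoglobin, a close relative of β-catenin that binds cadherins of adherens junctions and desmosomes. *JUP* had 935.7, 1058 and 953.0 normalized counts in control cells and 1348, 1201 and 1231 in the KO clones, a rise of 0.36 on the log2 scale (standard error 0.080, limma adjusted p = 0.0283) that stayed below the fold cut-off. The relatives with the highest means were *CTNNAL1* and *PKP4*. *CTNNAL1*, an α-catenin relative, had 14618 ± 399 in control and 12020 ± 3198 in KO cells (limma adjusted p = 0.266). *PKP4*, a relative of p120-catenin, had a log2 fold change of −0.18 with a limma adjusted p of 0.0537.

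Among 14 adaptors of the junction and nectins, 13 were tested, and limma, edgeR and DESeq2 each called 1 higher and 0 lower. A limma adjusted p below 0.05 was reached by 3 of them, and an unadjusted p below 0.05 by 6 with limma, 6 with edgeR and 8 with DESeq2. The called gene was *PLEKHA7*, which binds p120-catenin at the zonula adherens. It had 300.8, 335.6 and 280.6 normalized counts in control cells and 488.5, 567.6 and 504.6 in the KO clones, without overlap (log2 fold change 0.77, standard error 0.11, limma adjusted p = 0.00557). The other genes past the adjusted p fell by less than the fold cut-off. *ACTN1*, an α-actinin that crosslinks actin, went from 40898 ± 1079 to 32570 ± 252 (log2 fold change −0.33, limma adjusted p = 0.00881). *AJUBA*, a LIM protein that binds α-catenin, was chosen after its values were seen and went from 5289 ± 74.4 to 4386 ± 262 (log2 fold change −0.27, limma adjusted p = 0.025). *ACTN4* had the highest mean of this list, with a log2 fold change of −0.037 (limma adjusted p = 0.758).

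Among 12 genes of cadherin processing and turnover, all were tested, 0 were called and 0 had a limma adjusted p below 0.05, with 1 at an unadjusted p below 0.05. edgeR and DESeq2, run on recovered reads, also called 0 of these 12 genes, each with 1 at an unadjusted p below 0.05. *ADAM10*, the protease that sheds cadherin ectodomains, had a log2 fold change of 0.021 (limma adjusted p = 0.862), and *RAB11A*, a GTPase of recycling endosomes, one of −0.13 (limma adjusted p = 0.187). The median log2 fold change was −0.22 for the other cadherins, −0.17 for the catenin relatives, −0.036 for the adaptors and nectins, and 0.0075 for processing and turnover, beside −0.0059 over all tested genes.

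**Figure D4:**
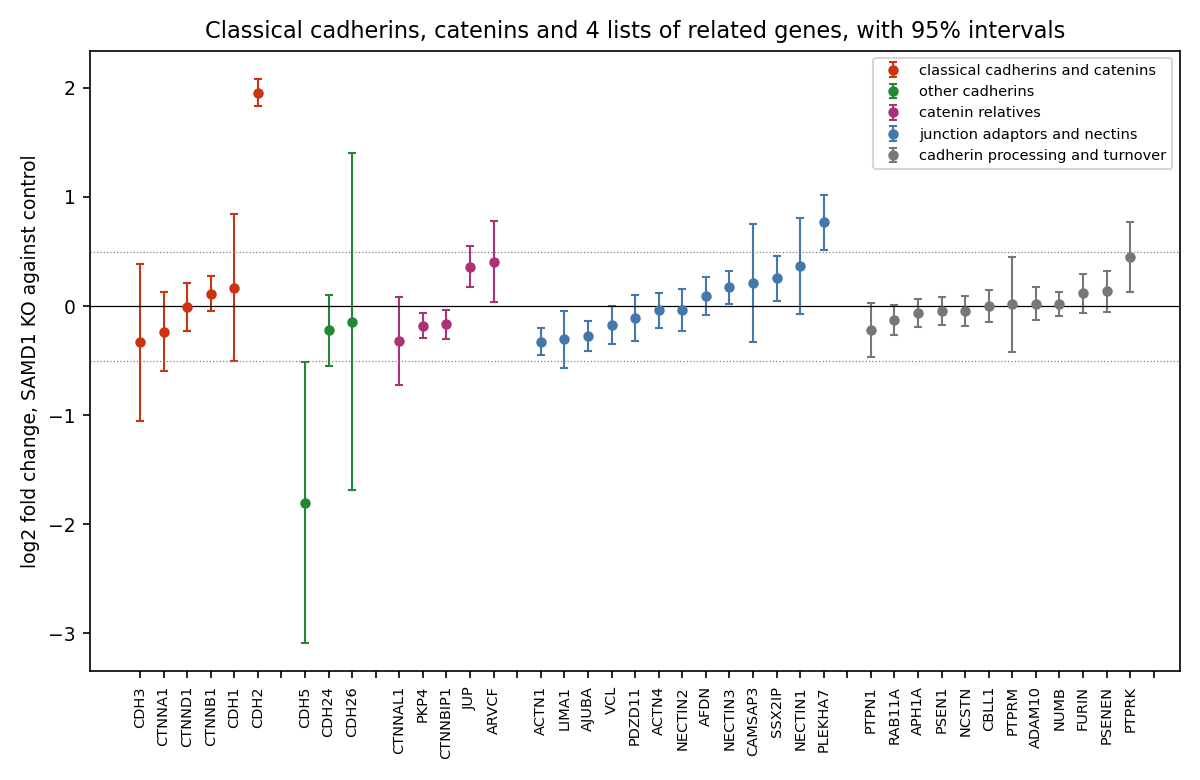
Change in SAMD1 KO cells on the log2 scale for each tested gene of the chosen cadherin and catenin set and of the 4 related lists. Bars show the limma 95% interval, and dotted lines mark the fold cut-off of 0.5 in each direction. CDH2 at 1.96 and PLEKHA7 at 0.77 are the genes called, and CDH5 at −1.80 has a wide interval.

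The genes whose pattern over the 6 libraries lay closest to that of *CDH2* were *CABLES1*, *SIPA1L2*, *RIMKLA*, *SLC4A4* and *MAPT*. Likeness was the root mean square distance between 2 genes of their 6 log2 differences from the control mean, and 12772 other tested genes were ranked. The distance was 0.114 for *CABLES1*, which had 173.5 ± 14.7 normalized counts in control and 631.3 ± 8.59 in KO cells. It was 0.119 for both *SIPA1L2* and *RIMKLA*, 0.142 for *SLC4A4* and 0.149 for *MAPT*. The ratios of the group means of these 5 genes ran from 3.64 to 4.35, around that of *CDH2*. As the libraries fall into 2 groups, closeness here mostly reflects a rise of like size.

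Library totals ran from 35589477 to 45172216 recovered reads. The KO clones differed more from each other than the control replicates did (chi-square per gene 50.9 to 58.5, against 2.64 to 5.19). Of 5 markers of ductal epithelium, *KRT8*, *KRT18* and *EPCAM* were expressed in all libraries, and *KRT19* was listed at 0 in all of them. Their summed normalized count was 62681 to 65891 in control cells and 67617 to 108553 in KO clones, and *KRT7* and *KRT18* were called higher. Among 6 fibroblast markers, *DCN* and *LUM* were at 0, *PDGFRA* went from 3.98 ± 0.572 to 17.9 ± 5.06 and was called higher, and the sum was 167.2 to 169.3 in control and 163.7 to 457.9 in KO cells. *COL3A1*, which made up most of that sum, had 111.1 ± 2.34 in control and 269.5 ± 134 in KO cells (log2 fold change 1.13, limma adjusted p = 0.0881), and edgeR and DESeq2 called it higher. *COL1A1* had 50.6 ± 1.91 and 26.2 ± 13.6 (log2 fold change −1.04, limma adjusted p = 0.098), without overlap and not called. The sums were 77.8 to 84.8 and 33.6 to 83.6 for 3 endothelial markers (*CDH5* among them), 355.1 to 369.8 and 244.5 to 328.3 for 3 leukocyte markers, of which *CD3E* was at 0, and at most 11.7 for 3 neural markers. Nearly all of the leukocyte sum was *CD68* (358.8 ± 7.90 in control and 290.7 ± 43.5 in KO cells), and *PTPRC* had at most 3 reads in every library. The part of these markers in the results above was not tested.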

How the data were processed

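RNA of 3 control libraries and 3 *SAMD1* KO libraries of PaTu8988t cells was sequenced by the authors (stranded mRNA kit). They aligned the reads with RNA-STAR to the GenCode 43 transcriptome, and the submitters' processing notes name featureCounts, DESeq2 and hg38. The strand setting of the counting is not given in the sources used here. The authors deposited a signal per gene, the normalized count, made by dividing a library's reads by its size factor (0.873 to 1.16). Within 0.05 reads, 100% of the values of all 6 libraries came out whole after division by the library's step, and these reads were used. In *SAMD1* KO clone 1 the step is 0.989, so close to 1 that whole multiples of it are a weaker test than in the other libraries. No sample column was left out (0 columns). The authors' own comparison table, with fold changes and p-values from DESeq2, was not used.

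The fit took log2(normalized count + 1), a scale that understates fold changes of low genes, for all genes averaging 10 normalized counts or more (limma 3.58.1 with a trended eBayes, R 4.3.3). The Benjamini-Hochberg adjustment ran over every gene tested. Intervals are 95% limma intervals, and all tests are two-sided. The fold and p cut-off is the one the study states. Single values per library were compared by exact permutation tests in Python 3.11.15 with SciPy 1.17.1. Of the symbols, 19546 were matched to GENCODE 44 for positions and exon lengths, and 3871 had no reads. The script was tested on simulated data.

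The 10 genes, the 4 related lists and the markers were chosen with earlier results of these data known. Named were all 10 genes, *SAMD1*, in each list up to 4 called genes and the 2 with the highest mean, and the 5 genes nearest to *CDH2*. Genes of the lists outside this rule are said to be so. The markers named singly also lie outside it, and no rule was set for which of them are named.

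Other settings tried were pseudocounts of 0.1 and 10, the filter at 50 or dropped, scaling by the 75th percentile, and DESeq2 1.42.0 and the quasi-likelihood test of edgeR 4.0.16 on recovered reads. Further ones were a block for the replicate number, each library left out, subtraction of the median of neighbouring genes, adjusted p in place of the cut-off, and other gene lengths. Expression alone was analysed here.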

Additional observations from a re-analysis of the deposited data

How the results depend on the processing

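*CDH2* was the 1 member called higher, and 0 members were called lower, under each of the alternatives run. Its log2 fold change ran from 1.80 to 1.98, and from 1.94 to 1.99 over left-out libraries. The *CDH1* value turned to −0.13 without control replicate 1 (range −0.13 to 0.32 over left-out libraries). *CDH3* ran from −0.47 to −0.057 over left-out libraries. *CTNNB1* turned to −0.037 with the regional shift removed. *CTNND1*, at −0.0041, turned to 0.015 with 75th percentile scaling, 0.0048 with edgeR, 0.0010 with DESeq2 and 0.099 with the regional shift removed, and ran from −0.075 to 0.037 over left-out libraries. The cause of these turns was not tested.

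Among the related lists, 0 genes were called lower at first, but 1 with a pseudocount of 10, 1 with no filter, 1 with DESeq2, 2 on adjusted p alone and 0 to 3 with each library left out. The number called higher was 1, 2 on adjusted p alone and 1 to 2 with each library left out. Over all tested genes, 266 were called lower, 600 on adjusted p alone and 177 to 369 with each library left out, with the lowest without control replicate 2. The number called higher was 737, and 569 to 859 with each library left out. The *CDH2* share gained 3.80 to 4.74 percentage points with each library left out, and the cadherin to catenin ratio 0.0930 to 0.102.

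With the replicate number as a block, 725 genes were higher and 259 lower, and the limma adjusted p of *CDH2* was 0.00076. The block cannot move a log2 fold change in this balanced design. The check made did not settle whether the numbers pair the libraries. Correlations of same-numbered deviations were weak (0.039, 0.13 and 0.032), and 5 of 6 libraries correlated best with their own number. Precision is limited by 3 libraries a group, and for *CDH1* and *CDH3* also by the few reads.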
